A study of Mus musculus with 10 samples.

Results

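Forkhead genes encode transcription factors that share one DNA-binding domain, and 44 of the 24594 genes in the count table belong to this family. Members were taken by name: every mouse symbol made of Fox, a subfamily letter and a number was kept, which gave 19 subfamilies. The 4 other symbols that begin with Fox, 2 of them opposite-strand transcripts (Foxd2os, Foxl2os) and 2 of them oxidoreductase genes (Foxred1, Foxred2), were left out. No expression value was used to choose the members.

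The libraries came from wild-type C57BL/6J mice whose virgin mammary glands were dissociated with enzymes. Luminal cells, which line the duct and include the hormone-sensing and milk-forming cells, and basal cells, which form the outer contractile layer, were sorted on the surface proteins EpCAM and CD49f. Bulk RNA-seq was carried out on 5 luminal and 5 basal libraries, with no treatment and no transgene in either group. The labels name no age, the study giving only an age range for its experimental mice as a whole, and the sorted luminal population was not divided into its progenitor and mature cells.

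The forkhead domain is a winged helix, and one of its helices, the recognition helix, lies in the major groove of DNA. Members differ in where and when they act. FOXA proteins can bind compacted chromatin and open it for hormone receptors such as the estrogen receptor, FOXO proteins are held out of the nucleus when insulin and growth factors activate AKT, and FOXM1 drives the genes of mitosis. In the mammary gland, FOXA1 is known for its role with the estrogen receptor in ductal growth.

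Library totals lay between 13203146 and 17998165 counts, and 16840 to 17842 genes had a count in a library. The 13 luminal markers were all called higher in luminal libraries and the 10 basal markers were all called higher in basal libraries, so the cells followed the cell type label, although each of the 10 titles gives the other layer. The summed level of the forkhead genes was 1224 to 1575 CPM (counts scaled to a common library total) in luminal libraries and 1380 to 1790 CPM in basal libraries. These are bulk samples, so a lower level in one group cannot be told apart between fewer cells that express a gene and less RNA in each cell.

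Of the 44 members, 20 passed the filter on low counts and were tested, and these 20 fell in 10 of the subfamilies. The test was edgeR's quasi-likelihood test with Benjamini-Hochberg adjustment over all 14609 genes tested, and a gene was called at an adjusted p under 0.05. Luminal and basal cells differed in most of what they express, since 64.8% of all genes tested were called. Among the forkhead genes 5 of 20 (25%) were called higher in luminal cells, where 33.6% of all genes tested were, and 10 of 20 (50%) were called higher in basal cells, where 31.2% were. With a change of at least 2-fold, 4 of 20 (20%) were higher in luminal cells against 20.9% of all genes tested, and 6 of 20 (30%) were higher in basal cells against 19.1%. Values of the 2 layers were fully separate for 5 members that were higher in luminal cells, where the background was 24.7%, and for 9 that were higher in basal cells, where it was 25.3%. The luminal counts are near or below the background shares, and whether the basal shares differ from the background was not tested. The median log2 fold change of luminal over basal was -0.56 over the 20 members tested and 0.05 over all genes tested.

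**Figure D1:**
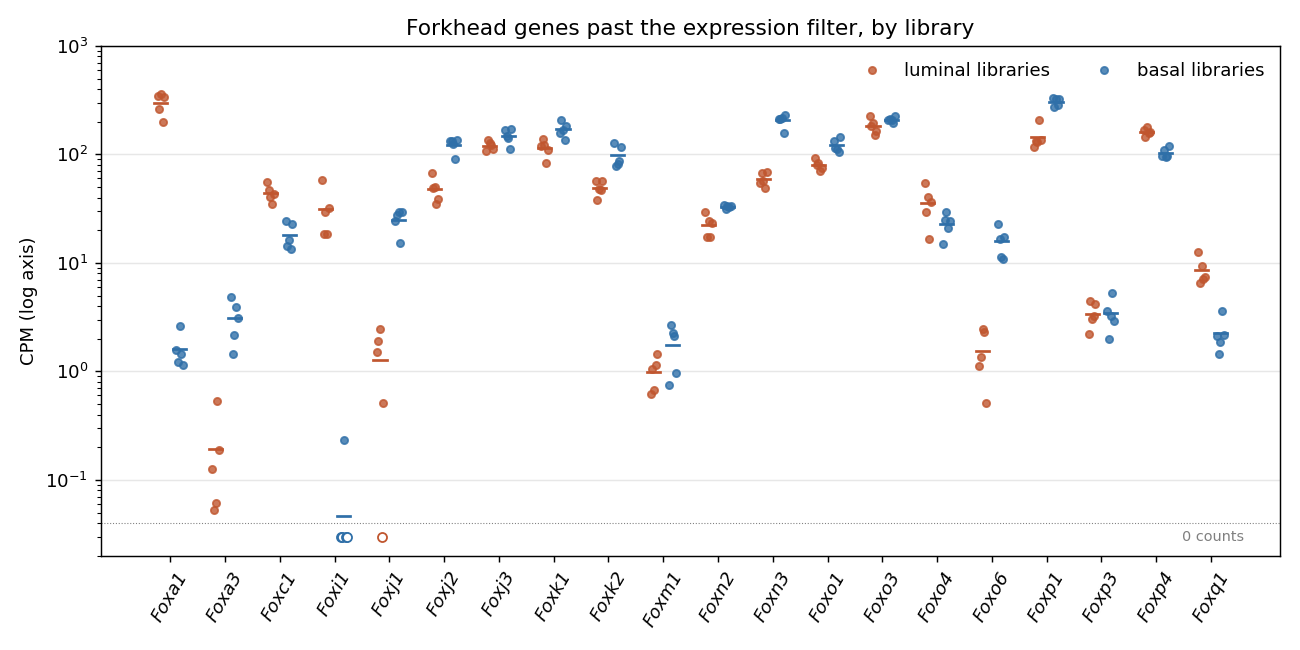
CPM of each of the 20 forkhead genes tested (log axis), with one point per luminal or basal library, a short line for the group mean and open points under the dotted line for libraries with 0 counts. Foxa1 and Foxi1 are far higher in every luminal library, Foxj1, Foxo6 and Foxa3 are far higher in every basal library, and the groups of Foxo3, Foxp3, Foxm1, Foxj3, Foxo4 and Foxk1 overlap.

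Among the FOXA genes, the factors that open chromatin, Foxa1 and Foxa3 went in opposite directions. Foxa1 (minus strand, chr12:57540628-57548029) was at 344, 262, 358, 198 and 340 CPM in luminal libraries 1 to 5. It was at 1.56, 1.23, 2.63, 1.44 and 1.14 CPM in basal libraries 1 to 5. Every luminal library was far above every basal library, and the lowest luminal value was in library 4. The log2 fold change was 7.56 (SE 0.28, edgeR adjusted p = 7.05e-11), and the mean basal level was 0.532% of the mean luminal level. For comparison, Esr1, which encodes estrogen receptor alpha, had a basal level of 15.4% of its luminal level, so a trace of Foxa1 in basal libraries was smaller in proportion than that of Esr1. The 13 luminal markers ran from 0.0835% for Prlr to 21.7% for Krt8. Kit stood at 0.652%, Aldh1a3 at 0.282%, Cd14 at 0.276% and Elf5 at 0.179%. Above these, Cldn3 stood at 1.96%, Pgr at 2.34%, Krt19 at 3.15%, Cldn4 at 14%, Krt18 at 14.2% and Epcam at 19.2%. The part of luminal cells carried over in the sort in the basal Foxa1 counts was not tested.

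Foxa3, best known from liver and gut, was a gene of low level. Its luminal values were 0.125, 0.0527, 0.0613, 0.535 and 0.19 CPM and its basal values 4.80, 1.43, 2.17, 3.94 and 3.12 CPM. The groups did not overlap, and luminal library 4 was the highest of the luminal libraries. The log2 fold change was -4.03 (SE 0.61, edgeR adjusted p = 4.59e-05), and it was -4.78 without luminal replicate 4. Foxa2, the third member of the subfamily, had 0 counts in all 10 libraries.

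A forkhead motif was found just upstream of 1 of the annotated starts of Foxa1. The 250 bases upstream of a RefSeq start were searched on both strands for TGTTTAC, and the motif was present in 1 of 33 promoters of 28 members and in 3.17% of all 32851 promoters. The Foxa1 start used lies inside the gene's annotated span, since other transcripts begin further upstream, so the sequence is the promoter of an internal start. The motif lies 141 bases before this start, in reverse orientation, and the stretch from 190 to 71 bases before the start is printed on the gene's strand with the motif in capitals.
Foxa1, upstream of an internal start, GRCm38.p6, chr12:57546182-57546301, minus strand: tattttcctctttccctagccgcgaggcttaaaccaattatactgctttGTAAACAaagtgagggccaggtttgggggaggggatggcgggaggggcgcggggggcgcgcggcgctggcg

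A match is only a description of these letters. The GATA motif AGATAA was in 2 of 33 member promoters (Foxa2 and Foxp3) and 9.99% of all promoters. The TEAD motif GGAATG was in 3 of 33 (Foxb2, Foxo3 and Foxp1) and 12.6% of all, and the CArG box bound by SRF was in 1 of 33 (Foxe3) and 1.47% of all. The member promoters were rich in G and C, with a median of 62.0% against 52.4% over all promoters.

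Genes that act with FOXA1 in hormone response were examined as a list of 19, of which 16 were tested. Among all genes tested 33.6% were called luminal and 31.2% basal, shares that stand beside every list below and against which no list was tested. Of the 16, 8 were higher in luminal cells, 4 were higher in basal cells and 4 did not pass the test. The list's median log2 fold change was 0.78. Esr1, Pgr and Krt18, counted among the 8, are also luminal markers, so their calls are not separate from the check of the cell type label. With scaling by library totals only, 11 genes of the list were called luminal and 2 basal. Without luminal replicate 2 the basal calls numbered 2, and with at least 10 counts in every library 5 genes were called luminal and 4 basal, with a median of 0.33. Tnfsf11, the RANK ligand through which progesterone signals to neighbouring cells, had a log2 fold change of 6.69 (edgeR adjusted p = 5.57e-07). Pgr, the progesterone receptor, had one of 5.42 (edgeR adjusted p = 9.59e-08). In the other direction Tfap2c, an AP-2 factor, was at 46.7 ± 5.69 CPM in luminal and 1271 ± 218 CPM in basal cells (SD, n = 5 each), and Nrip1, a corepressor of nuclear receptors, fell by 1.41 on the log2 scale in luminal cells. Gata3 and Trps1, 2 GATA-family genes of the luminal layer, had log2 fold changes of 1.39 each, far smaller than that of Foxa1.

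Foxi1 was the forkhead gene most confined to luminal libraries. FOXI1 is known as the master regulator of ionocytes, cells that pump protons and chloride in kidney, inner ear and airway. Its luminal levels were 58.5, 18.4, 29.3, 18.6 and 31.9 CPM. The basal libraries had 0, 0, 3, 0 and 0 counts, the 3 counts standing for 0.232 CPM in basal library 3. All 5 luminal libraries lay far above the basal ones, and luminal library 1 was the highest. The pooled luminal level was 797 times the pooled basal level, with a 95% interval of 272 to 3865 that covers counting error only. The fitted log2 fold change was 9.36 (SE 0.63, edgeR adjusted p = 1.44e-08), a value that depends on how a near-zero count is treated. Without basal replicate 3 no basal count was left, and the luminal level was then at least 662-fold higher, taking 3 counts over the remaining basal libraries as the floor.

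Of 12 ionocyte genes linked to FOXI1, 2 were tested, and 1 was higher in each layer. Atp6v1b1, a proton pump subunit of ionocytes and kidney intercalated cells, was at 119, 61.2, 80.0, 39.7 and 114 CPM in luminal libraries and 1.06, 1.09, 1.01, 0.375 and 0.839 CPM in basal libraries. The groups did not overlap, and its log2 fold change was 6.56 (edgeR adjusted p = 2.43e-09). Atp6v1c2, another pump subunit, had a log2 fold change of -1.47 (edgeR adjusted p = 0.0166). The other 10 did not pass the filter, and 6 of the 12 never passed 3 counts in a luminal library. The paralogs of Foxi1 were not found, with 0 counts for Foxi2 in all libraries and at most 2 counts for Foxi3 in any library.

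Foxc1 and Foxq1 were also higher in luminal cells, and they are neighbours. Foxq1, Foxf2 and Foxc1 lie in this order within 252466 bases on chr13:31558170-31810635, with no other protein-coding gene between them. Foxc1, a factor of mesenchyme, vessels and eye development that is also used as a marker of basal-like breast cancer, was at 56.0, 47.5, 40.8, 35.2 and 43.3 CPM in luminal libraries. It was at 24.1, 14.2, 16.2, 13.3 and 23.0 CPM in basal libraries, below every luminal library. The log2 fold change was 1.30 (SE 0.20, edgeR adjusted p = 5.19e-05). Foxq1, which is known for promoting epithelial-to-mesenchymal transition in cancer cells, was at 12.6, 6.53, 9.45, 7.18 and 7.49 CPM in luminal libraries and 2.12, 1.43, 1.86, 3.63 and 2.16 CPM in basal libraries. Its groups did not overlap either, and its log2 fold change was 1.94 (SE 0.30, edgeR adjusted p = 5.84e-05). Foxf2, which lies between them, had 3 counts in basal library 1 and 0 in the other 9 libraries. Of the 4843 exon bases that the GENCODE M21 annotation gives Foxq1, 3200 overlap the antisense transcript A530084C06Rik. The positions above are from RefSeq, which holds a different model of the gene. Since the annotation and the use of strand in counting are not given, reads of the 2 transcripts cannot be told apart.

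Genes linked to FOXC1 and FOXQ1 in epithelial-to-mesenchymal transition and Notch signalling split between the layers. Of 16 listed, 14 were tested, 6 were higher in luminal cells, 7 were higher in basal cells and 1 did not pass, and the median log2 fold change was -1.04. It was 1.00 with at least 10 counts in every library, when 9 of the genes were tested. Hes1, a Notch target, had a log2 fold change of 3.36 (edgeR adjusted p = 1.96e-09), and Zeb2, a repressor of E-cadherin, one of 1.53 (edgeR adjusted p = 0.0106) at a low level of 1.09 ± 0.384 CPM in luminal cells (SD, n = 5). Snai2, the repressor known from basal mammary cells, was at 0.214 ± 0.292 CPM in luminal and 85.3 ± 10.7 CPM in basal cells (SD, n = 5 each). Vim, the intermediate filament vimentin, fell by 4.80 on the log2 scale in luminal cells. Foxc1 and Foxq1 were higher in the layer in which Snai2 and Vim were lower and Hes1 and Zeb2 were higher.

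The second forkhead cluster, Foxf1, Foxc2 and Foxl1 on chr8:121084386-121130644, was not tested in any of its genes. Foxf1, known from the mesenchyme of lung and gut, had 0, 0, 6, 0 and 0 counts in luminal libraries and 10, 21, 9, 30 and 18 counts in basal libraries. Its groups did not overlap. In a fit with no filter on low counts its log2 fold change was -3.86 (edgeR adjusted p = 0.00388). Markers of pericytes, the contractile cells of small vessels, stand beside this value: of 7 listed, 5 were tested, 4 were higher in basal cells, with Rgs5 at 21.7 ± 4.81 CPM and Pdgfrb at 9.84 ± 2.36 CPM (SD, n = 5 each), and 1, Notch3, was higher in luminal cells. The summed level of the list was 94.9 to 269 CPM in luminal and 35.4 to 48.8 CPM in basal libraries, the luminal sum being mostly Notch3. Of 9 fibroblast markers 7 were tested, 1 was higher in each layer, and their sum was 29.8 to 119 CPM in luminal and 29.8 to 47.4 CPM in basal libraries. Of 10 endothelial markers 6 were tested, 2 were higher in each layer, and their sum was 73.2 to 119 CPM in luminal and 15.6 to 22.8 CPM in basal libraries. That luminal sum was mostly Vwf, at 81.6 ± 18.7 CPM in luminal and 2.25 ± 1.17 CPM in basal cells (SD, n = 5 each). Cdh5 and Cldn5 were the endothelial genes higher in basal cells, with log2 fold changes of -4.37 (edgeR adjusted p = 3.51e-06) and -4.25 (edgeR adjusted p = 1.59e-04), and Vwf, at 5.19 (edgeR adjusted p = 9.03e-09), was higher in luminal cells with Egfl7. The study's sorting method also stains for the lineage markers TER-119, CD31 and CD45 of red cells, endothelium and leukocytes, whereas the labels of these libraries name only EpCAM and CD49f. The part of these cell types in the Foxf1 counts was not tested.

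Foxj1 and Foxa3 had the largest folds toward the basal layer among the members tested, and their order depended on the libraries used. FOXJ1 is known as the master regulator of motile cilia. Its basal levels were 24.3, 27.6, 29.3, 15.1 and 29.3 CPM, and its luminal levels were 1.5, 1.90, 2.45, 0 and 0.508 CPM. Every basal library was above every luminal library, and luminal library 4 had 0 counts. The log2 fold change was -4.26 (SE 0.52, edgeR adjusted p = 5.63e-06). It was -5.01 with limma voom and -3.97 without luminal replicate 4.

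Of 18 genes of motile cilia listed beside Foxj1, 16 were in the table and 9 were tested, of which 4 were higher in luminal cells, 1 was higher in basal cells and 4 did not pass. The median log2 fold change was 0.24. It was between 0.42 and 0.59 when 1 of luminal libraries 2, 4 and 5 or basal libraries 2, 3, 4 and 5 was left out. In those fits 10 or 11 genes were tested in place of 9, so these medians cover a changed set of genes. With upper-quartile factors the median was 0.37, and with scaling by library totals only it was 0.45. Ccdc40, which is needed to assemble the ciliary axoneme, had a log2 fold change of 1.81 (edgeR adjusted p = 0.0104), and Dnah11, a dynein motor of motile cilia, one of 1.77 (edgeR adjusted p = 4.08e-05). Cfap43, another axonemal protein gene, was at 77.7 ± 11.4 CPM in luminal and 166 ± 20.4 CPM in basal cells (SD, n = 5 each). In the main fit it was the 1 gene called in the direction of Foxj1. The list held 2 basal calls with DESeq2, with limma voom and without luminal replicate 2.

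Foxj2, a relative of Foxj1 that is expressed in many tissues, was at 67.4, 49.5, 50.0, 35.2 and 38.6 CPM in luminal libraries and 133, 134, 124, 90.7 and 135 CPM in basal libraries. The groups did not overlap, and the log2 fold change was -1.36 (SE 0.18, edgeR adjusted p = 1.55e-05). Foxj3 did not pass the test, with 120 ± 11.4 CPM in luminal and 148 ± 24.8 CPM in basal cells (SD, n = 5 each) and a log2 fold change of -0.30 (95% interval -0.60 to 0.00, edgeR adjusted p = 0.0747). Without basal replicate 4, the lowest basal library for this gene, its adjusted p in edgeR was 0.0155.

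**Figure D2:**
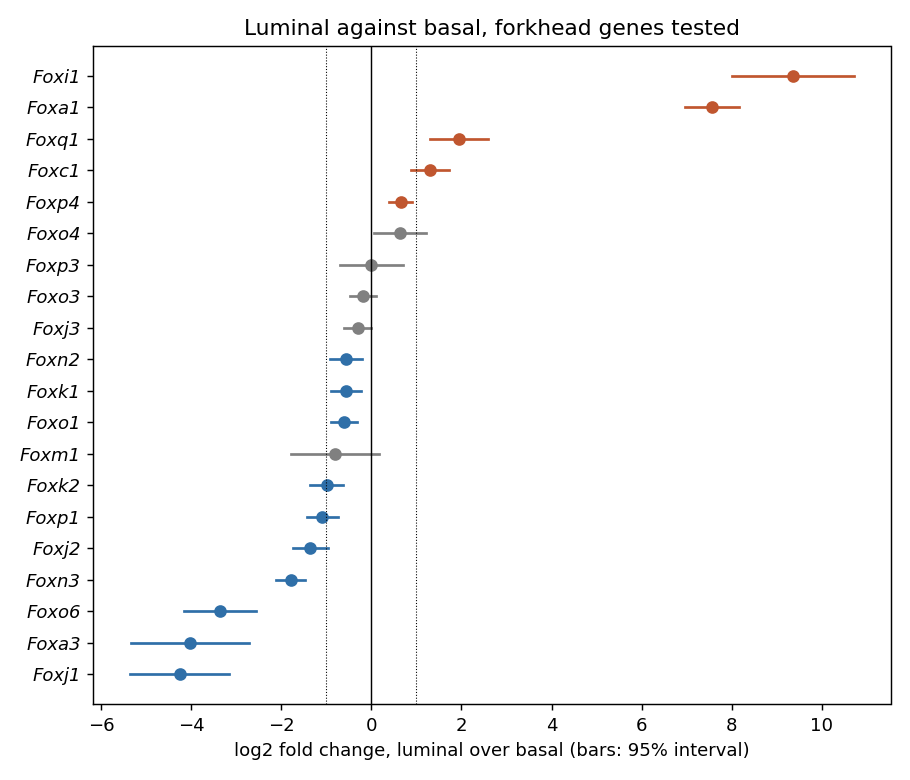
Log2 fold change of luminal over basal cells for each of the 20 forkhead genes tested, with its 95% interval from the edgeR fit on 5 libraries per group. Red genes were called higher in luminal cells, blue genes were called higher in basal cells and grey genes were not called. Dotted lines mark a 2-fold change. Foxi1 at 9.36 and Foxa1 at 7.56 stand far to the right, and Foxj1, Foxa3 and Foxo6 lie between -4.26 and -3.35.

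The FOXO genes are the insulin-sensing members of the family, and they differed from one another. Foxo6, known mainly from brain, was at 1.13, 1.37, 2.45, 2.29 and 0.508 CPM in luminal libraries. It was at 22.9, 16.6, 11.3, 10.9 and 17.3 CPM in basal libraries. The groups did not overlap, and the log2 fold change was -3.35 (SE 0.37, edgeR adjusted p = 2.30e-06). Foxo1, a main effector of insulin signalling, was at 80.2 ± 8.47 CPM in luminal and 122 ± 16.7 CPM in basal cells (SD, n = 5 each), a log2 fold change of -0.60 (SE 0.13, edgeR adjusted p = 0.00109). Part of this locus, 674 exon bases, overlaps the opposite-strand gene Gm20402.

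Foxo3 and Foxo4 did not pass the test. Foxo3, linked to quiescence and stress resistance, was at 184 ± 29.1 CPM in luminal and 209 ± 10.8 CPM in basal cells (SD, n = 5 each). Its log2 fold change was -0.19 (95% interval -0.48 to 0.10, edgeR adjusted p = 0.229), and its sign turned when libraries were scaled by their totals only. Foxo4 was at 54.7, 29.4, 40.7, 16.5 and 36.1 CPM in luminal and 14.8, 24.9, 29.3, 21.1 and 24.4 CPM in basal libraries. Luminal library 4 was the lowest of its group and lay inside the basal range. The log2 fold change of Foxo4 was 0.63 (95% interval 0.06 to 1.21, edgeR adjusted p = 0.0503), and without luminal replicate 4 it was 0.81 (edgeR adjusted p = 0.00432).

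Genes that regulate FOXO proteins were examined as a list of 19. All were tested, of which 3 were higher in luminal cells, 10 were higher in basal cells and 6 did not pass, with a median log2 fold change of -0.53. With scaling by library totals only, 4 were called luminal and 7 basal, with a median of -0.34. Among all genes tested 33.6% were called luminal and 31.2% basal, and no list was tested against these shares. Pik3cb and Pik3ca, catalytic subunits of the PI3-kinase that acts above AKT, went in opposite directions, with log2 fold changes of 1.05 (edgeR adjusted p = 1.83e-04) and -0.95 (edgeR adjusted p = 2.53e-05). Stk3, the kinase MST2, had one of 0.65 (edgeR adjusted p = 0.00201), and Crebbp, an acetyltransferase that modifies FOXO proteins, one of -1.33 (edgeR adjusted p = 1.65e-05).

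FOXO target genes went both ways, as did all genes tested, of which 33.6% were called luminal and 31.2% basal. The list was not tested against these shares. With scaling by library totals only, 10 luminal and 5 basal calls were made. That scaling also moved the median log2 fold change of all genes tested from 0.05 to 0.24. Of 22 listed, 21 were tested, 7 were higher in luminal cells, 8 were higher in basal cells and 6 did not pass, with a median log2 fold change of -0.30. The median was -0.19 without luminal replicate 1, -0.14 without luminal replicate 5 and -0.04 with at least 10 counts in every library. Gadd45a, a stress and DNA damage gene, had a log2 fold change of 2.0 (edgeR adjusted p = 5.06e-07), and Txnip, a regulator of glucose uptake and redox state, was at 4207 ± 909 CPM in luminal and 1134 ± 114 CPM in basal cells (SD, n = 5 each). Fbxo32, the ubiquitin ligase atrogin-1, was at 44.0 ± 21.9 CPM in luminal and 1097 ± 184 CPM in basal cells (SD, n = 5 each), a log2 fold change of -4.64 (edgeR adjusted p = 4.46e-08). Irs2, an adaptor of the insulin receptor, was at 60.3 ± 10.5 CPM in luminal and 890 ± 232 CPM in basal cells (SD, n = 5 each), a log2 fold change of -3.88 (edgeR adjusted p = 3.37e-09).

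The FOXP genes, repressors that work as dimers, included the member called luminal by the smallest fold and the most counted member of the basal libraries. Foxp1, which is known to control B cell and lung development, was at 118, 133, 130, 206 and 135 CPM in luminal libraries and 330, 276, 321, 287 and 322 CPM in basal libraries. The groups did not overlap, luminal library 4 stood above the other luminal libraries, and the log2 fold change was -1.09 (SE 0.16, edgeR adjusted p = 3.64e-05). Foxp4, a close relative, went the other way, at 169, 146, 179, 156 and 159 CPM in luminal and 95.7, 110, 94.2, 96.5 and 119 CPM in basal libraries. Every luminal library was above every basal library, and its log2 fold change was 0.65 (SE 0.12, edgeR adjusted p = 2.92e-04), under 2-fold.

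Foxp3, the factor of regulatory T cells, was at 3.42 ± 0.906 CPM in luminal and 3.42 ± 1.22 CPM in basal cells (SD, n = 5 each). Its log2 fold change was 0.00 (95% interval -0.70 to 0.70, edgeR adjusted p = 0.997), and its sign differed between scalings. The defining T cell genes Cd3e and Cd3d had 0 counts in all 10 libraries. Of the 11 immune markers, 5 were tested, of which 3 were called toward the luminal and 1 toward the basal layer, and the list's sum was 13.4 to 24.3 CPM in luminal and 14.9 to 20.3 CPM in basal libraries. Exons of Foxp3 overlap neighbouring genes such as Ccdc22 and Ppp1r3f on the opposite strand and Flicr on the same strand. The overlaps, added up gene by gene, come to 2082 bases, so the counts cannot be assigned to Foxp3 alone. Foxp2, known from brain and speech circuits, had at most 6 counts in any library.

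Of 13 partners of the FOXP proteins in repression, 12 were tested, 1 was higher in luminal cells, 6 were higher in basal cells and 5 did not pass, with a median log2 fold change of -0.24. With scaling by library totals only, 2 were called luminal and 3 basal, with a median of -0.05. With no filter on low counts all 13 were tested, 1 was called luminal and 6 basal, and the median was -0.50. Hdac1, a histone deacetylase, was the 1 gene higher in luminal cells, with a log2 fold change of 1.26 (edgeR adjusted p = 4.57e-05). Nfatc2, a calcium-regulated factor, had one of -1.51 (edgeR adjusted p = 0.00927) and Runx1, a Runt-family factor, one of -1.37 (edgeR adjusted p = 1.01e-04).

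The FOXN genes that were tested were both higher in basal cells. Foxn3, a repressor linked to the cell cycle checkpoint, was at 54.7, 68.0, 56.4, 49.3 and 69.1 CPM in luminal libraries and 214, 213, 217, 158 and 229 CPM in basal libraries. The groups did not overlap, and the lowest basal library was library 4. The log2 fold change was -1.79 (SE 0.15, edgeR adjusted p = 1.08e-07). Foxn2 was at 22.4 ± 5.20 CPM in luminal and 33.1 ± 1.24 CPM in basal cells (SD, n = 5 each), a log2 fold change of -0.56 (SE 0.16, edgeR adjusted p = 0.00777), a call that was lost when libraries were scaled by their totals only. Foxn1, the factor of thymus and hair follicle, was not tested and had at most 16 counts in any library, and Foxn4 had at most 2 counts.

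Foxk1 and Foxk2, 2 repressors that are expressed broadly and are linked to the SIN3 complex and to BAP1, were both higher in basal cells. Foxk1 was at 115 ± 20.7 CPM in luminal and 170 ± 26.9 CPM in basal cells (SD, n = 5 each), a log2 fold change of -0.56 (SE 0.16, edgeR adjusted p = 0.00661). It was the 1 called member whose groups overlapped, with the highest luminal library at 139 CPM and the lowest basal library at 135 CPM, and its call was lost with scaling by totals only. Foxk2 was at 49.4 ± 7.90 CPM in luminal and 98.2 ± 22.2 CPM in basal cells (SD, n = 5 each), a log2 fold change of -0.99 (SE 0.17, edgeR adjusted p = 1.56e-04), just under the 2-fold limit.

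Of the 12 partners of the FOXK proteins, all tested, 1 was higher in luminal cells, 7 were higher in basal cells and 4 did not pass, with a median log2 fold change of -0.53. With scaling by library totals only, 5 were called basal, with a median of -0.33. Suds3, a subunit of the SIN3 complex, was the 1 gene higher in luminal cells, with a log2 fold change of 1.08 (edgeR adjusted p = 3.81e-06). Srf, the factor that binds CArG boxes, was at 111 ± 34.5 CPM in luminal and 237 ± 40.8 CPM in basal cells (SD, n = 5 each), a log2 fold change of -1.10 (edgeR adjusted p = 2.72e-04). Ogt, the enzyme that adds N-acetylglucosamine to nuclear proteins, had one of -0.94 (edgeR adjusted p = 0.0481), a call that was lost in 10 of 18 settings.

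Foxm1, the mitotic regulator, was at a low level in both layers. It was at 0.992 ± 0.347 CPM in luminal and 1.75 ± 0.843 CPM in basal cells (SD, n = 5 each), with a log2 fold change of -0.81 (95% interval -1.79 to 0.17, edgeR adjusted p = 0.135). The genes of mitosis linked to FOXM1 numbered 24, of which 20 were tested, 7 were higher in luminal cells, 1 was higher in basal cells and 12 did not pass, with a median log2 fold change of 0.39. Aurka, a mitotic kinase, was at 6.40 ± 3.46 CPM in luminal and 0.906 ± 0.407 CPM in basal cells (SD, n = 5 each), a log2 fold change of 2.82 (edgeR adjusted p = 5.32e-05), and Ccnb2, a mitotic cyclin, had one of 2.14 (edgeR adjusted p = 0.0143). The Ccnb2 groups overlapped, with luminal library 2 at 6.58 CPM and the other luminal libraries at 1.001 to 2.21 CPM. Without luminal replicate 2 the log2 fold change of Ccnb2 was 1.33 (edgeR adjusted p = 0.0795), and the list then had 5 luminal calls and a median of 0.12. The median was 0.59 without luminal replicate 1, when 21 genes were tested, and 0.21 without basal replicate 5. It was 0.18 with at least 10 counts in every library, when 11 genes were tested and 4 were called luminal. Lin54, a DNA-binding subunit of the complex that recruits FOXM1, was the 1 gene higher in basal cells, with a log2 fold change of -1.01 (edgeR adjusted p = 3.02e-04). The summed level of the list was 96.2 to 143 CPM in luminal and 67.5 to 95.8 CPM in basal libraries.

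**Figure D3:**
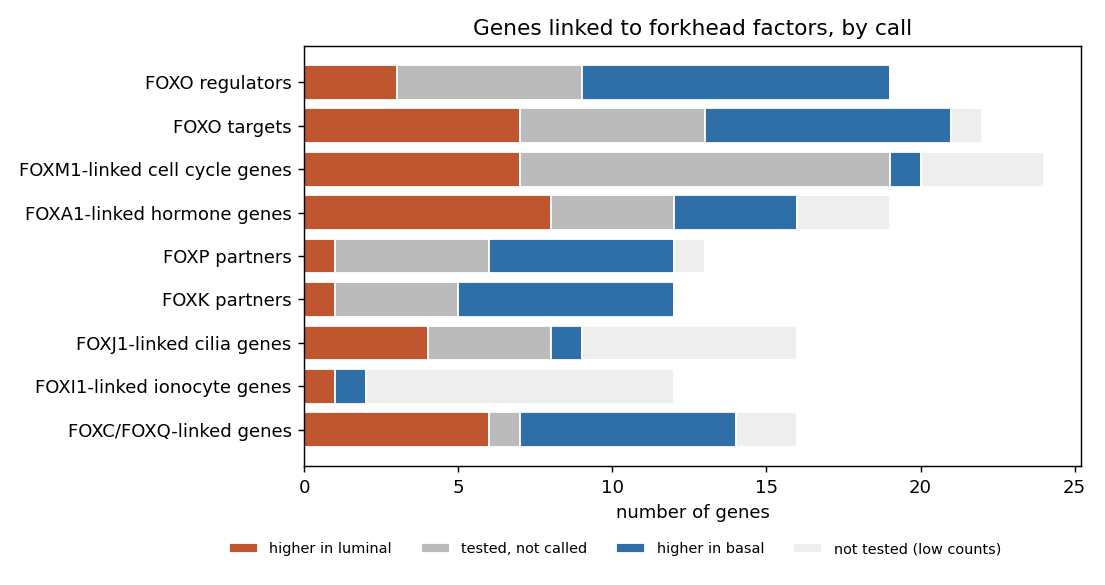
Number of genes in each list of regulators, partners and targets linked to forkhead factors, by the edgeR call at an adjusted p under 0.05. Red is higher in luminal cells, dark grey is tested and not called, blue is higher in basal cells, and light grey is not tested because of low counts. FOXO regulators (3 luminal, 10 basal of 19 tested) and FOXK partners (1 luminal, 7 basal of 12) hold more basal than luminal calls. With scaling by library totals only, their counts were 4 and 7, and 1 and 5. FOXM1-linked genes (7 luminal, 1 basal of 20) and FOXA1-linked genes (8 luminal, 4 basal of 16) hold more luminal than basal calls. With totals only, the counts of these lists were 8 and 1, and 11 and 2. Among all genes tested 33.6% were called luminal and 31.2% basal, and no list was tested against these shares.

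Divided by exon length, the forkhead genes of a layer can be set beside one another. In luminal cells Foxa1 stood first at 90.3 ± 20.5 CPM per kb (SD, n = 5), and it made up 35.4% of the summed length-scaled level of the members tested. Foxp4 followed at 32.9 ± 2.57 CPM per kb and Foxo3 at 24.2 ± 3.85 CPM per kb (SD, n = 5 each). The lowest Foxa1 library, at 59.6 CPM per kb, lay above the highest Foxp4 library, at 36.3 CPM per kb, whereas Foxp4 and Foxo3 overlapped, with the highest Foxo3 library at 29.9 and the lowest Foxp4 library at 29.6 CPM per kb. Foxi1 was in rank 5 at 13.3 ± 6.95 CPM per kb, behind Foxk1 at 15.2 ± 2.73 CPM per kb (SD, n = 5 each), and these also overlapped.

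In basal cells no single member stood apart. Foxo3 at 27.6 ± 1.43, Foxj2 at 23.1 ± 3.50, Foxk1 at 22.4 ± 3.55, Foxp1 at 22.4 ± 1.77 and Foxp4 at 20.9 ± 2.20 CPM per kb (SD, n = 5 each) came first. Foxo3, in rank 1, ran from 25.8 to 29.8 CPM per kb, above every Foxj2 library at up to 25.3 CPM per kb, and overlapped Foxk1, which ran from 17.9 to 27.3 CPM per kb. Foxa1 was in rank 17 of 20 at 0.481 ± 0.180 CPM per kb and Foxi1 in rank 20 at 0.0197 ± 0.0440 CPM per kb (SD, n = 5 each). Bowtie2 does not align reads across introns, so counts of genes with many short exons may be lowered against those of single-exon genes such as Foxc1 and Foxq1 in this comparison between genes.

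**Figure D4:**
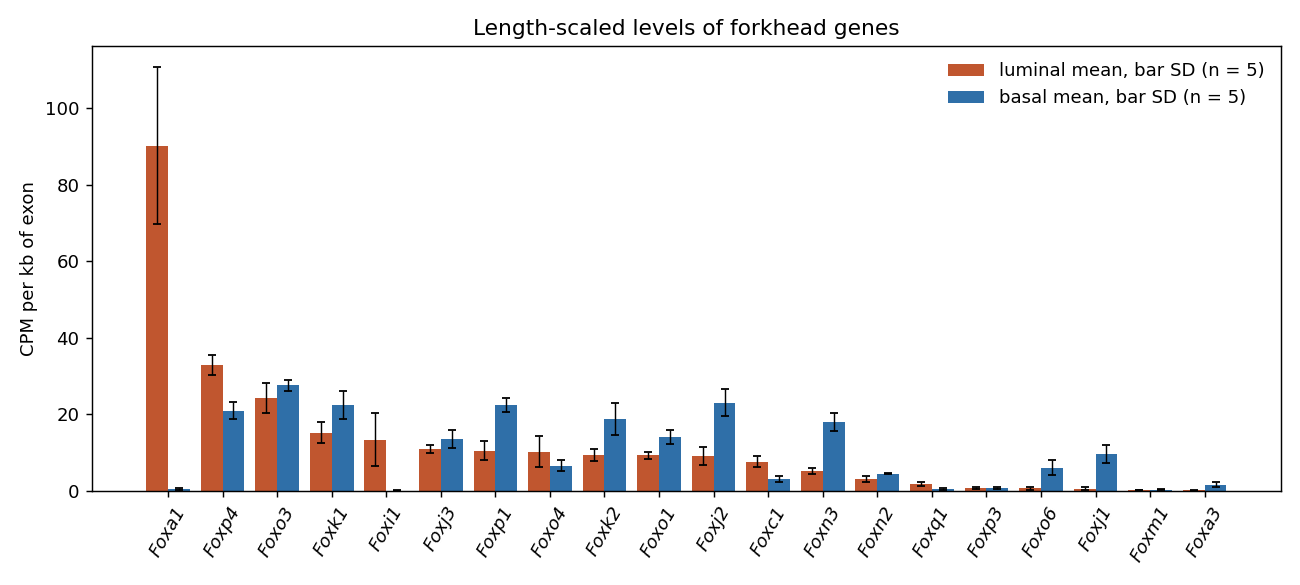
Mean length-scaled level (CPM per kb of exon, linear axis) of the 20 forkhead genes tested, ordered by their luminal level, with bars of 1 SD over 5 libraries. Foxa1 at 90.3 CPM per kb leads the luminal layer and nearly vanishes in the basal layer, and Foxo3, Foxj2, Foxk1, Foxp1 and Foxp4 share the top of the basal layer at 20.9 to 27.6 CPM per kb.

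The remaining 24 members did not pass the filter. Of these, 10 had 0 counts in every library: Foxa2, Foxb1, Foxb2, Foxd2, Foxd4, Foxe3, Foxh1, Foxi2, Foxr1 and Foxr2, most of them known from embryo, brain, eye or germ line. A count of 0 allows up to 3 counts, which is 0.158 to 0.232 CPM depending on the library, and covers counting error only. Another 7 never passed 3 counts, among them Foxd1, Foxf2, Foxi3, Foxl1, Foxl2 and Foxn4. The last 7 had over 3 counts in some library: Foxc2, Foxd3, Foxe1, Foxf1, Foxn1, Foxp2 and Foxs1. Foxs1, known from pericytes and the neural crest, had 38, 6, 4, 24 and 40 counts in luminal and 15, 3, 5, 0 and 8 counts in basal libraries, which overlapped, and it is thus counted in both layers while Foxf1 is counted mainly in the basal one. Foxc2 reached 16 and Foxe1 10 counts, each in basal library 4 and at most 4 counts in any other library.

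The members also varied within a layer. Luminal library 1 held the highest luminal level of 8 of the 20 members tested, and luminal library 4 the lowest of 10. Among basal libraries, library 5 held the highest level of 7 and library 4 the lowest of 9. The coefficient of variation over the luminal libraries ran from 7.83% for Foxp4 to 103% for Foxa3, and over the basal libraries from 3.74% for Foxn2 to 224% for Foxi1, which had counts in 1 basal library.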

How the data were processed

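The deposited table holds unnormalized counts, 1 column per library and 1 row per gene. Per the labels, reads were trimmed with cutadapt 4.2 and aligned with Bowtie2 2.3.5.1, and the builds mm10 and hg19 are listed. The counting tool, its annotation and its use of strand are not given in the sources used here. Entrez identifiers were matched to symbols of the GRCm38.p6 RefSeq table, for 24570 of 24594 genes. The members and the gene lists were chosen with earlier results of these data known, and the lists were written from general knowledge.

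The cell type label set the groups. Same-numbered luminal and basal libraries share a leading number in their description, taken as the animal, and the pairing rests on it. The mean correlation of their deviations from the group means was 0.0442 (range -0.134 to 0.252), against -0.00718 for differently numbered libraries. The study calls its RNA-seq samples biological replicates, but gives a smaller number for each condition than is found here, so whether this holds for these libraries is unsure and p-values measure only the spread between these libraries.

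Genes were filtered with filterByExpr of edgeR 4.0.16 (R 4.3.3, minimum count 10, minimum total count 15), scaled with TMM factors and compared with edgeR's quasi-likelihood test with cell type as the only term. Adjustment was by Benjamini-Hochberg over the 14609 genes tested. CPM uses the TMM-scaled total, and CPM per kb divides it by the summed exon length of GENCODE M21. The annotation used in counting may hold other lengths. The SE was taken from the log2 fold change and the F statistic. The pipeline was tested on simulated data. Named genes are every member tested, the members called at least 2-fold and Foxa1 library by library, and up to 4 genes per list with the 2 largest and 2 smallest log2 fold changes among those called. Marker genes and the members under the filter were named beside results they touch, and Foxf1, Foxs1, Foxp4 and Foxo4 were given library by library after their values were seen. Protein sequences were not used here, and some items are not reported here. Alternatives were DESeq2 1.42.0 and its size factors, upper-quartile factors, library totals only, no filter, at least 10 counts in every library, limma voom 3.58.1, the replicate block and leaving out each library.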

Additional observations from a re-analysis of the deposited data

Results flagged for a closer look

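Among 39 groups of 5 libraries, 5 held a library that stood apart from the other 4 by Dixon's test, and chance flags about 1 in 20 groups. Foxa1 was at 2.63 CPM in basal library 3, with the other basal libraries at 1.14 to 1.56 CPM. Basal library 3 was also the only basal library with counts of Foxi1. Foxa3 was at 0.535 CPM in luminal library 4, while the others of its group ran from 0.0527 to 0.19 CPM, and Foxp1 was at 206 CPM in the same library, against 118 to 135 CPM. Foxj2 was at 90.7 CPM in basal library 4, against 124 to 135 CPM, and Foxn3 was at 158 CPM in that library, against 213 to 229 CPM. For each of these genes, the flagged value stayed on its own group's side of the other group.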

How the results depend on the processing

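Calls and log2 fold changes of the members and the forkhead-linked lists were recomputed under 18 settings, which gave 12 to 17 members called. Length-scaled levels, motif shares and the calls and sums of the marker lists were not recomputed. Foxa3, Foxi1, Foxj1 and Foxo6 had no value with at least 10 counts in every library. Of 356 values for single members, 335 kept their direction and their side of the threshold. The number of members at least 2-fold higher in basal cells was 3 in place of 6 with at least 10 counts in every library, since only 16 members were then tested. With the replicate block all 15 called members were called again, and the pairing changed no count of forkhead genes. The median log2 fold change of all genes was 0.05 with TMM, 0.17 with upper-quartile factors and 0.24 with library totals only. With totals only, 6 members were called higher in luminal and 8 in basal cells, Foxk1 (-0.36, adjusted p = 0.082, edgeR) and Foxn2 (-0.37, adjusted p = 0.0804, edgeR) were no longer called and Foxo3 was at 0.006. Foxp3, near 0 throughout, was at 0.12 with upper-quartile factors, 0.19 with totals only, 0.01 with at least 10 counts, 0.029 with limma voom and 0.022 with the replicate block, and ran from -0.16 to 0.20 when a library was left out, positive without luminal replicates 1, 3 or 4 or basal replicates 1 or 4. Foxo4 was called in 6 settings, up to 0.83 with totals only, and Foxj3 in 2, DESeq2 and without basal replicate 4. For the 32 genes named from the lists, alternatives chosen after seeing the data gave 568 values, of which 557 kept their call, 11 lost it (10 of Ogt and 1 of Ccnb2) and 0 turned in direction. Counting as not detected only members at 0 in every library gave 10 in place of 17. Most members under the filter had too few counts for a precise fold, and without the filter Foxf1 alone of 14 such members was called. Some members passed the filter only when a library was left out. Without luminal replicate 3, 22 members were tested, 6 were called luminal (5 at least 2-fold) and 11 basal (8 at least 2-fold). Without luminal replicate 2, 21 were tested, 7 were called luminal (5 at least 2-fold) and 10 basal (6 at least 2-fold).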

Other observations

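Some luminal genes ordered the luminal libraries alike and others did not. Foxi1 was highest in luminal library 1 (58.5 CPM) and next in library 5 (31.9 CPM). The same order of the first and second library held for Atp6v1b1 (119 and 114 CPM), for Kit (288 and 208 CPM) and Cd14 (2061 and 1184 CPM), markers of luminal progenitors, and for Pgr (611 and 426 CPM), a marker of hormone-sensing cells. Aldh1a3, another progenitor marker, had the reverse order (421 CPM in library 1 and 464 CPM in library 5), and Prlr was highest in library 5 at 1587 CPM. Esr1 did not share it, with 101 CPM in library 1, 108 CPM in library 5 and the highest level, 112 CPM, in library 3. Nor did Foxa1, which was highest in library 3 at 358 CPM. These genes were chosen after their values were seen, so no correlation or test is given.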
